A study of Danio rerio with 93 samples.

Results

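The lens crystallin genes are the genes of the count table whose zebrafish symbol, or the human symbol under which the gene is listed, names an alpha-crystallin (cryaa, cryaba, cryabb), a beta-crystallin (symbols starting with cryba or crybb) or a gamma-crystallin (crygm, crygn or crygs). There are 53 of them among 19913 genes. They comprise 1 alpha-A gene (CRYAA), 2 alpha-B genes that both carry the symbol CRYAB, 7 beta-A genes, 3 beta-B genes, 21 crygm2d genes, 13 other gamma-M genes, 2 gamma-N genes (CRYGN) and 4 gamma-S genes. The rule reads gene names and uses no measured value. The RNA of 93 whole zebrafish embryos, each sequenced on its own at 48 h post fertilization (hpf), was measured, with 3 embryos at each of 5 nominal concentrations of each of 5 smoke dyes. The dyes were Solvent Violet 47 (12, 17.5, 23, 31.5 and 40 μM), Disperse Blue 14 (133, 171, 209, 261.5 and 314 μM), Disperse Red 9 (10, 25, 35, 45 and 55 μM), Solvent Yellow 33 (7.5 and 9 μM, then 10.5, then 12 and 13.5 μM) and Solvent Red 169 (1 and 5 μM, then 11.2, then 35.6 and 50 μM). Each dye had its own control embryos at concentration 0, 4 per dye and 2 for Solvent Violet 47, and by the methods the wells were normalized to 0.64% DMSO. The fish were wild-type Tropical 5D, the chorions were removed, and exposure began when the embryos were moved to single wells.

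Crystallins are the soluble proteins that fill the fibre cells of the vertebrate lens, where their dense and ordered packing gives transparency and refractive power. Alpha-crystallins belong to the small heat shock proteins and act as chaperones that keep other lens proteins in solution, while beta- and gamma-crystallins are structural proteins of 1 shared superfamily. Gamma-M crystallins, the class that fish lenses hold in large amounts, are rich in methionine and have no counterpart gene in mammals. In zebrafish the lens separates from the surface ectoderm and its primary fibres elongate during the second day of development, so that the embryos were collected while crystallin transcripts were accumulating. Because whole embryos were sequenced, fewer lens fibre cells and less crystallin RNA per cell cannot be told apart.

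Of the 53 members, 34 had a count in all 93 embryos and 15 had a median count under 10. The filter on low counts kept 40 members for Disperse Blue 14 and Disperse Red 9 and 39 for the other dyes, and 13 members were tested for no dye. These 13 were CRYAB (ENSDARG00000042621), CRYBB2, CRYBB3, crygm2a, crygm2b, crygm2c, crygm3, crygm4, crygm6, crygm7, CRYGS (ENSDARG00000041171), crygs3 and crygs4, which reached at most 43 counts in any embryo. The 21 crygm2d genes stand next to each other as 21 consecutive protein-coding genes in the RefSeq annotation of assembly GRCz12tu. They are known as near-identical copies, between which the counting model could divide reads, so that the value of a single crygm2d gene is uncertain. How many reads they share was not measured. Which CRYAB gene is cryaba and which is cryabb is not given in the sources used here.

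The libraries held 9171265 to 48188027 counts, with a median of 32290121. One library stood far below the others, replicate 3 of 12 μM Solvent Yellow 33, and the next lowest held 22423359. Levels are given in CPM, the usual scaling of a count to its library's total, here after TMM normalization. None of the 18 genes of the lens fibre membrane and cytoskeleton list was at 0 in every embryo. Their summed level was 458 to 870 CPM over all embryos, so that RNA of this list as a whole was present in every library. Whether each of its genes was present in each library is not given. No pair of libraries in a group held identical counts. In 3 control embryos crygm2d11 was far below its level in the other 15, and the counts of calls, the median fold changes of Solvent Red 169 and the crygm2d11 fold changes of Disperse Blue 14, which rest on them, are also given without them.

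The summed level of the 53 genes differed widely between single embryos, also between controls. It was 579 to 36239 CPM in the 75 exposed embryos, with a median of 4996 CPM, and 2729 to 27043 CPM in the 18 control embryos, with a median of 7847 CPM. The crystallins took 0.0551% to 1.56% of the counts of exposed embryos and 0.295% to 2.46% of those of control embryos. The highest sums were those of replicate 3 of 12 μM Solvent Yellow 33 with 36239 CPM and replicate 2 of the Disperse Blue 14 control with 27043 CPM. This order depended on the TMM scaling, since the crystallins took 1.51% of the counts in the library of 12 μM Solvent Yellow 33, against 2.46% in the Disperse Blue 14 control and 1.56% in replicate 3 of 25 μM Disperse Red 9.

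**Figure D1:**
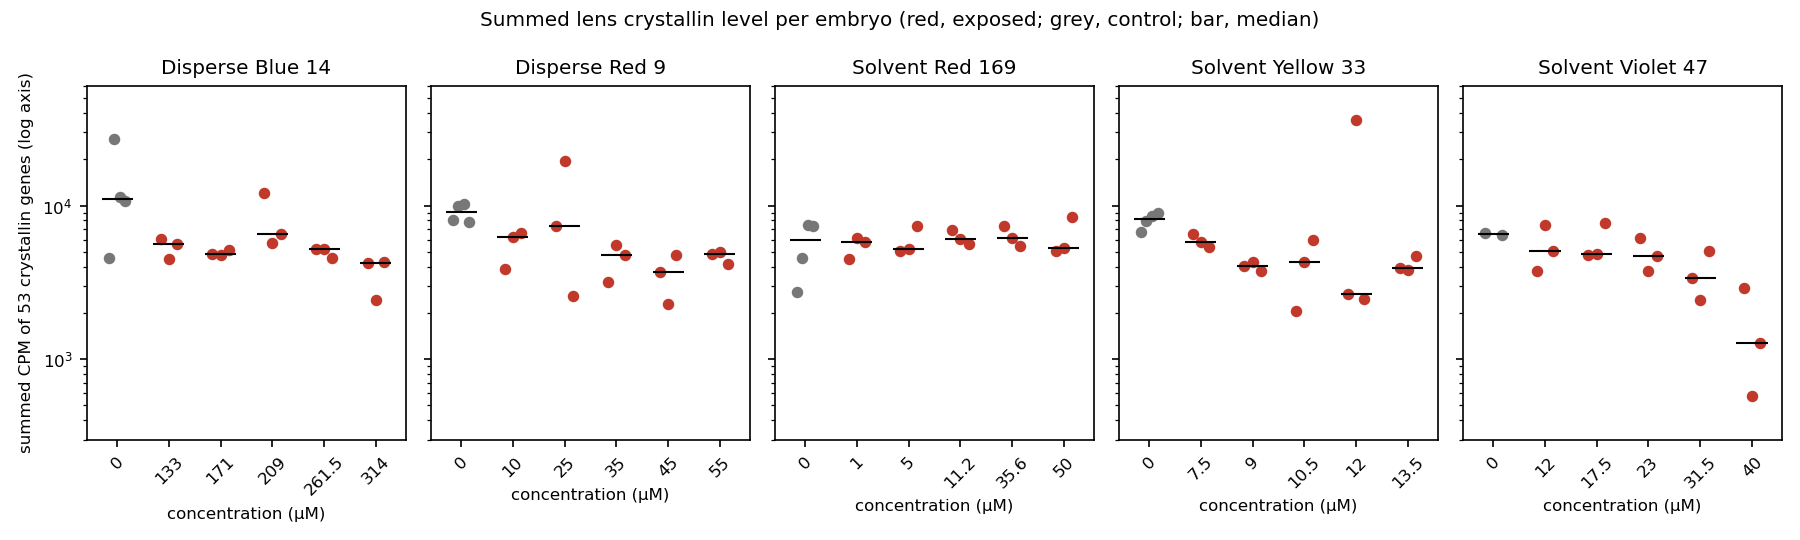
Summed CPM of the 53 lens crystallin genes in each embryo (y axis, log scale) against nominal concentration in μM (x axis, control at 0), with exposed embryos in red, control embryos in grey and a bar at each group's median. The sums at 40 μM Solvent Violet 47 were 579 to 2926 CPM, below both controls at 6401 and 6590 CPM, while the Solvent Red 169 groups overlapped their controls.

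For Solvent Violet 47 most crygm2d genes were called lower at 40 μM. At 40 μM the summed level was 1591 ± 1206 CPM (SD, n = 3) in exposed embryos and 6496 ± 134 CPM (SD, n = 2) in control embryos, and at 31.5 μM it was 3635 ± 1350 CPM (SD, n = 3). A gene was called where it changed by more than 1.5-fold with an adjusted p (Benjamini-Hochberg) below 0.05 in edgeR's quasi-likelihood test, which is the test behind all adjusted p-values below unless another is named. At 40 μM, 24 of 39 tested members were called lower and 1 higher, against 8.91% of all tested genes called lower and 6.05% called higher. The median log2 fold change of the members was -2.19 and that of all tested genes was 0.04. The 24 comprised 20 of the 21 crygm2d genes, the gamma-M genes crygmxl1, crygm5 and crygm2f, and only 1 of 8 tested beta-crystallin genes, CRYBA2 (ENSDARG00000030349). At 31.5 μM, 5 members were called lower and 1 higher, against 4.04% and 2.22% of all genes. At 12, 17.5 and 23 μM no member was called, where 0% of all genes were called lower. At these concentrations 0, 3 and 5 members had an unadjusted p under 0.05. Among all 17921 tested genes, 214, 1247 and 1647 had such a p. With DESeq2 the members called at these 3 concentrations numbered 0, 0 and 1. In fits of only 1 concentration and its control, 8 members were called at 40 μM and 8 at 23 μM, all lower. The share of all genes called in these smaller fits was not counted.

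The crygm2d gene with the largest change was crygm2d11. Its level was 20.9, 21.3 and 12.9 CPM at 12 μM, 10.4, 6.66 and 4.47 CPM at 17.5 μM and 6.89, 0.987 and 1.15 CPM at 23 μM. It was 0.269, 0.252 and 0.373 CPM at 31.5 μM and 0.30, 0.0375 and 0.0271 CPM at 40 μM, against 29.2 and 43.8 CPM in the controls. All 15 exposed embryos lay below both controls, and the 3 embryos at 40 μM held 10, 1 and 1 counts of this gene, against 945 and 1224 in the controls. The log2 fold change was -6.94 ± 0.82 (SE) at 31.5 μM (adjusted p = 0.00126) and -8.20 ± 0.89 at 40 μM (adjusted p = 0.000204).

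Other crygm2d genes with much higher counts fell less steeply. crygm2d14 had 14.2, 1.88 and 7.49 CPM at 40 μM and 150 and 189 CPM in the controls, a log2 fold change of -4.46 ± 0.55 (adjusted p = 0.000393). At 31.5 μM crygm2d14 had 18.8, 14.8 and 29.6 CPM (log2 fold change -3.02 ± 0.52, adjusted p = 0.00726). crygm2d8, the gamma-M gene with the highest mean CPM in controls, had 198, 31.7 and 108 CPM at 40 μM and 514 and 500 CPM in the controls (log2 fold change -2.21 ± 0.51, adjusted p = 0.00889). In crygm2d14 and crygm2d8 all exposed embryos at 40 μM were below both controls, and replicate 3 was the lowest of them. crygm2d17 (-3.91), crygm2d16 (-3.75), crygm2d15 (-3.67) and crygm2d6 (-3.16) followed on the log2 scale, and crygm2d21 was the crygm2d gene at 40 μM that was not called (-1.90, adjusted p = 0.0538).

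Of the other gamma-M genes, crygm2f had 0.0300, 0 and 0 CPM at 40 μM and 0.803 and 1.18 CPM in the controls. Its log2 fold change of -6.14 ± 1.00 (adjusted p = 0.00126) rests on very few counts. crygm5 had 1.5, 0.150 and 0.0271 CPM at 40 μM and 5.44 and 9.27 CPM in the controls (log2 fold change -3.74 ± 0.85, adjusted p = 0.00861). crygmxl1 had 4.23, 1.05 and 2.12 CPM at 40 μM and 9.24 and 10.7 CPM in the controls (log2 fold change -2.05 ± 0.44, adjusted p = 0.0064). The groups did not overlap in any of these genes.

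Most beta-crystallins and both tested alpha-crystallins were not called. CRYBA2 (ENSDARG00000030349) had 164, 82.4 and 101 CPM at 40 μM and 289 and 259 CPM in the controls (log2 fold change -1.28 ± 0.27, adjusted p = 0.00571). CRYBB1, a basic beta-crystallin, had 72.1, 12.1 and 34.1 CPM at 40 μM and 51.0 and 29.6 CPM in the controls (log2 fold change -0.07, adjusted p = 0.97). CRYAA, the lens alpha-crystallin chaperone subunit, had 52.1, 24.1 and 31.7 CPM at 40 μM and 55.5 and 50.3 CPM in the controls (log2 fold change -0.60, adjusted p = 0.31). In CRYBB1 and CRYAA the values of the embryos at 40 μM overlapped the range of the controls. Over the 8 tested beta-crystallin genes the median log2 fold change was -0.74 at 40 μM and 0.49 at 31.5 μM, while over the 21 crygm2d genes it was -2.80 at 40 μM and -1.36 at 31.5 μM. The difference between the classes was not tested. CRYGN (ENSDARG00000102129) was the member called higher, with 1.56, 0.713 and 1.27 CPM at 40 μM and 0.433 and 0.215 CPM in the controls (log2 fold change 1.81 ± 0.58, adjusted p = 0.0444), and it was also the member called higher at 31.5 μM (2.5 ± 0.59, adjusted p = 0.0229).

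A trend was fitted over the 15 exposed embryos of each dye as a slope on concentration, with a call at an adjusted p under 0.05 and no fold limit. For Solvent Violet 47, 26 of 39 members were called with a falling slope and 1 with a rising slope, against 13.6% and 13.3% of all genes. The lowest adjusted p-values belonged to crygm2d11 (log2 change of -7.70 ± 0.71 over the range of 28 μM, adjusted p = 8.86e-06), crygm2d14 (-3.84 ± 0.45, adjusted p = 3.42e-05) and crygm2d15 (-3.47 ± 0.48, adjusted p = 0.000102). No member was called in the trends of the other dyes. All genes with a called falling slope were 0.0113% for Disperse Red 9 and 0% for Disperse Blue 14, for Solvent Red 169 and for Solvent Yellow 33, and 5, 0, 0 and 1 members of these dyes, in this order, had an unadjusted p under 0.05. Among all genes 939, 1383, 964 and 353 had one, of 17689, 17693, 17630 and 17416 tested. Leaving out 1 embryo at a time left 21 to 30 members called in the Solvent Violet 47 trend. For this dye the share of all genes called with an embryo left out was not counted. At 40 μM the count fell to 15 without control replicate 4, 17 without control replicate 3 and 18 without replicate 4 of the exposed group, at most 27 were called without replicate 1, and 14 members were called in all 5 of these fits. At 31.5 μM only crygm2d11 was called in all 5 fits, and the count was 1 without control replicate 4, 2 without control replicate 3 or without replicate 4 of the exposed group, 3 without its replicate 3 and 4 without its replicate 1.

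**Figure D2:**
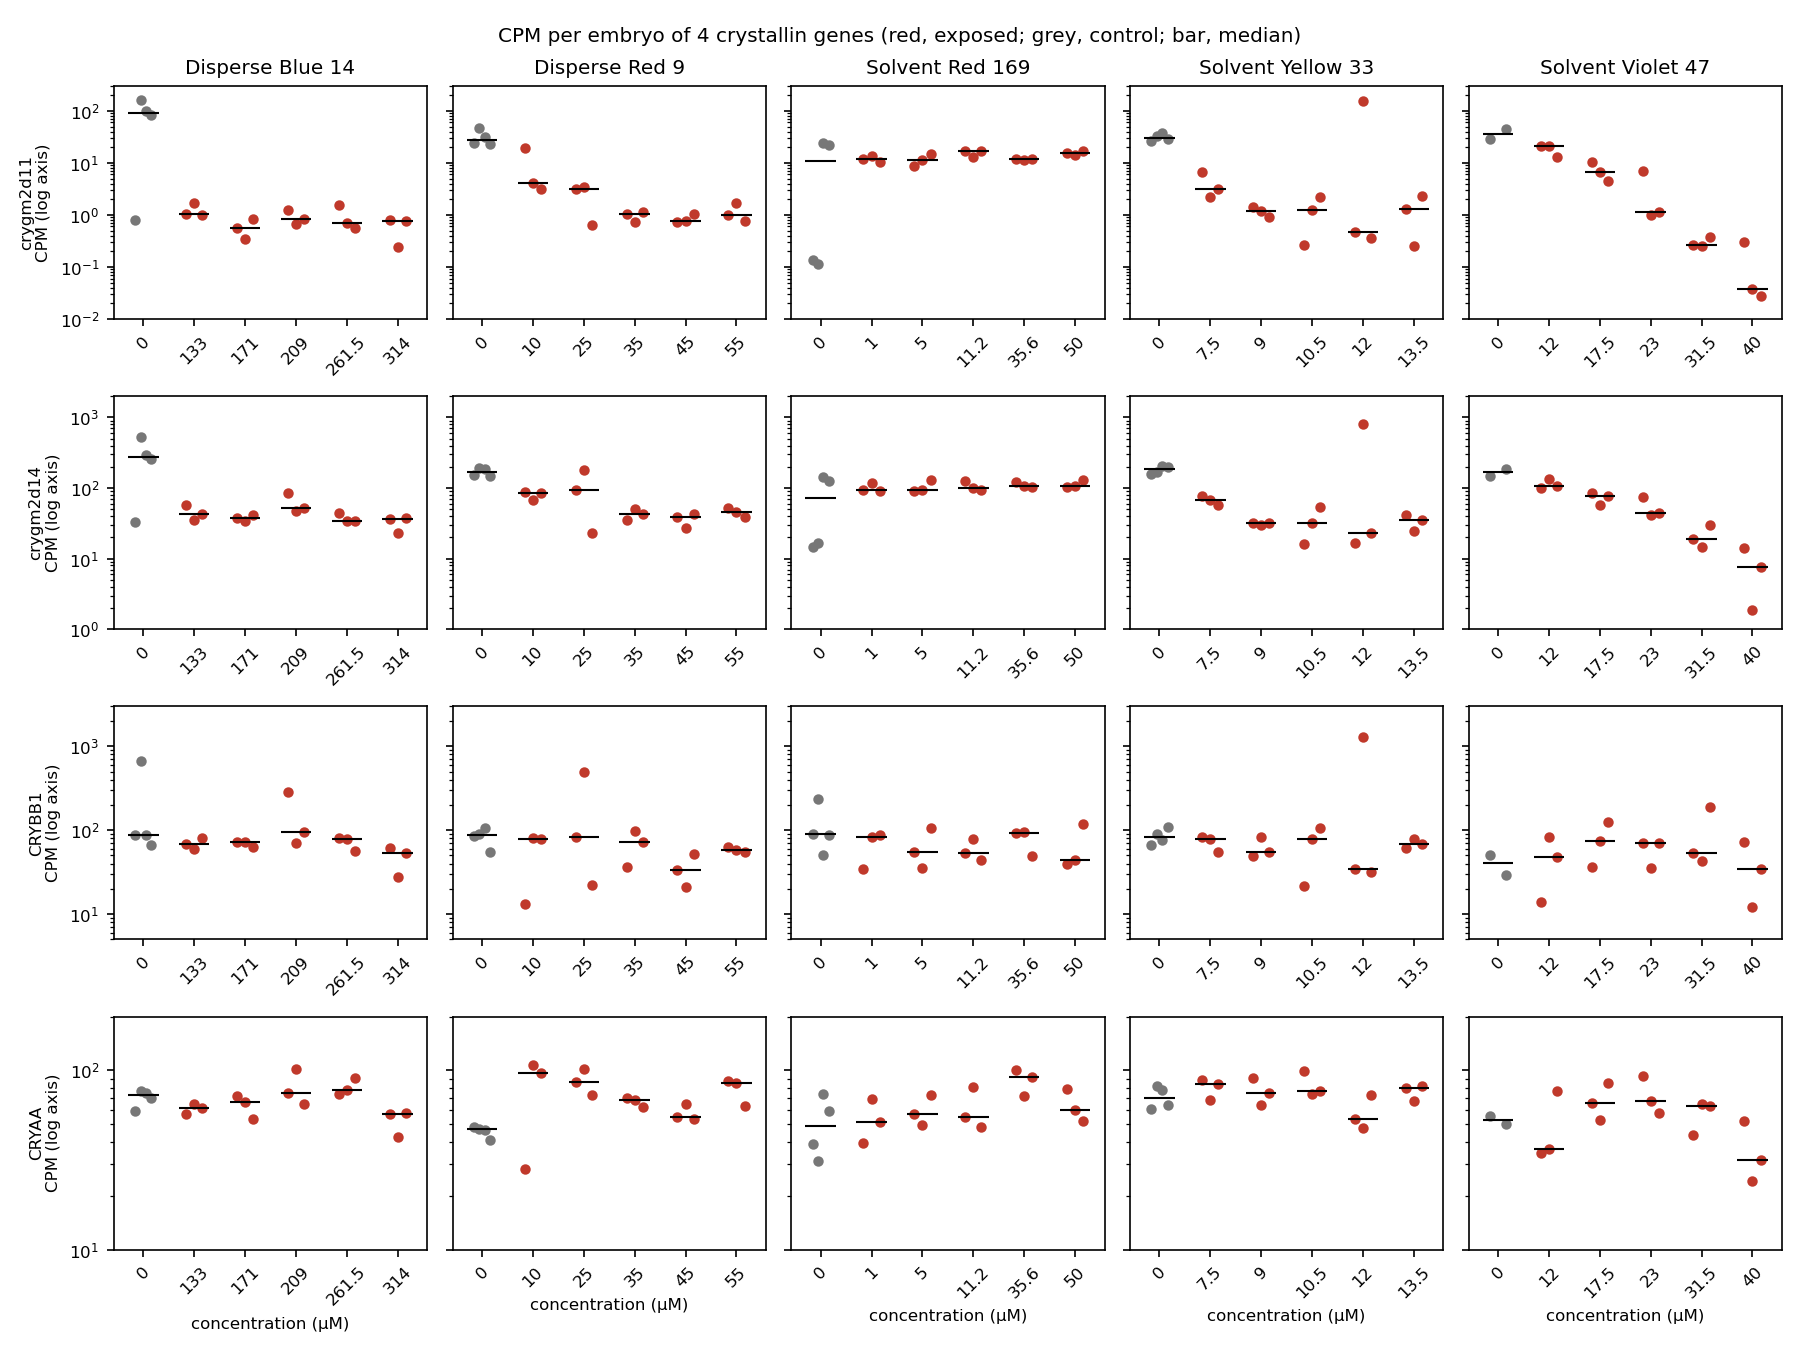
CPM in each embryo (y axis, log scale) of crygm2d11, crygm2d14, CRYBB1 and CRYAA (rows) for the 5 dyes (columns) against nominal concentration in μM (control at 0), with exposed embryos in red, control embryos in grey and a bar at the median. crygm2d11 fell to 0.0271 to 0.30 CPM at 40 μM Solvent Violet 47, against 29.2 and 43.8 CPM in the controls, while CRYAA lay between 24.1 and 107 CPM in all 93 embryos.

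In Disperse Blue 14 most of the calls came at the highest concentration. At 314 μM the summed level was 3668 ± 1073 CPM (SD, n = 3) in exposed embryos and 13393 ± 9590 CPM (SD, n = 4) in control embryos. There, 33 of 40 members were called lower and 1 higher, against 8.0% of all genes called lower and 7.66% called higher, and the median log2 fold change was -1.90 for the members and -0.01 for all genes. The 33 comprised all 21 crygm2d genes, 6 of 8 tested beta-crystallin genes, crygm5, crygm2f, crygmx, crygmxl1, crygmxl2 and CRYGN (ENSDARG00000030411). At 133, 171, 209 and 261.5 μM, 1, 6, 1 and 9 members were called lower, against 0.0447%, 0.246%, 0.0447% and 0.291% of all genes. The median log2 fold changes of the members at these concentrations were -1.33, -1.51, -0.68 and -1.5, and 33, 34, 12 and 33 members were lower at an unadjusted p under 0.05. Of all 17887 tested genes, 2402, 3039, 1533 and 3066 had such a p in either direction.

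The Disperse Blue 14 controls differed strongly among themselves. For crygm2d8 the embryos at 314 μM had 272, 151 and 271 CPM, against 369, 2051, 921 and 764 CPM in control replicates 1 to 4 (log2 fold change -2.11 ± 0.40, adjusted p = 0.0103). Control replicate 2 was the highest and control replicate 1 the lowest, and every exposed embryo was below all controls. For crygm2d14 the embryos at 314 μM had 36.8, 22.7 and 38.0 CPM, against 32.6, 528, 294 and 254 CPM in the controls (log2 fold change -3.05 ± 0.57, adjusted p = 0.00922). Control replicate 1 lay inside the range of the exposed embryos in this gene. The same held for crygm2d15, at 27.0, 15.4 and 21.4 CPM in exposed embryos and 24.6, 358, 147 and 128 CPM in the controls (log2 fold change -2.91 ± 0.57, adjusted p = 0.0117), and for crygm2f.

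For crygm2d11 the split was wider. It had 0.245 to 1.66 CPM in all 15 exposed embryos of Disperse Blue 14, against 0.813, 161, 101 and 83.7 CPM in the controls. It was called at all 5 concentrations, with log2 fold changes of -6.11, -7.21, -6.52, -6.49 and -7.11 from the lowest to the highest concentration (adjusted p = 0.0232, 0.00681, 0.0138, 0.00846 and 0.00515). Without control replicate 1, a check chosen after seeing its low level of this gene, they were -6.53, -7.62, -6.94, -6.90 and -7.52. Since this control was picked by the tested gene itself, no p of that fit is given. Control replicate 1 was within the range of the exposed embryos and the other 3 controls were far above it. At 314 μM it was the only member called in all 7 fits with 1 embryo left out.

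The calls of CRYBA4 and CRYBB1 at 314 μM depended on control replicate 2, and the other called beta-crystallin genes are not given without it. CRYBA4, an acidic beta-crystallin, had 67.8, 25.1 and 52.7 CPM at 314 μM and 99.2, 951, 138 and 141 CPM in the controls (log2 fold change -2.73 ± 0.72, adjusted p = 0.0273). CRYBB1 had 61.8, 27.8 and 53.2 CPM at 314 μM and 87.7, 677, 87.2 and 66.5 CPM in the controls (log2 fold change -2.23 ± 0.69, adjusted p = 0.0402). In both genes 1 control was far above the other 3, and all exposed embryos were below all controls. Without control replicate 2 the log2 fold change was -1.36 for CRYBA4 (adjusted p = 0.0709) and -0.74 for CRYBB1 (adjusted p = 0.198). The summed skeletal muscle level of this control was 28930 CPM and its keratinocyte level 18407 CPM, against 8580 to 10168 CPM and 6902 to 12719 CPM in the other controls. The part of this in the calls was not tested. cryba1l2, a beta-A gene, was called higher, with 30.3, 57.9 and 54.0 CPM at 314 μM and 40.5, 28.8, 30.3 and 21.7 CPM in the controls (log2 fold change 0.69 ± 0.23, adjusted p = 0.0495), and 1 exposed embryo lay among the controls. CRYAA was not called at any concentration and had 56.9, 42.6 and 58.1 CPM at 314 μM and 59.7, 76.3, 75.1 and 69.9 CPM in the controls (log2 fold change -0.38, adjusted p = 0.0949).

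The number of calls in Disperse Blue 14 depended on single embryos. At 314 μM it fell to 1 without replicate 3 of the exposed group, 14 without replicate 4 and 19 without control replicate 2, and reached 35 without control replicate 1 or 3. Without control replicate 1, 21, 26, 12 and 26 members were called at 133, 171, 209 and 261.5 μM. This control had the lowest crystallin sum of its group, 4578 CPM, against 10663 to 27043 CPM in the others. Leaving it out thus raised the mean control sum, and with it the fall read in exposed embryos. The share of all genes called in the fits with an embryo left out was not counted. The 6 calls at 171 μM became 0 without its replicate 1 or 2, 1 without its replicate 3 or control replicate 3 or 4 and 3 without control replicate 2. The 9 calls at 261.5 μM became 0 without its replicate 4, 1 without its replicate 1 or 3, 2 without control replicate 2, 3 or 4 and 5 without replicate 3 of 314 μM, the last a check chosen after seeing the data. The single calls at 133 and 209 μM were lost without any 1 embryo of their group, and that at 133 μM also without control replicate 3. In fits of only 1 concentration and its control no member was called at any concentration.

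**Figure D3:**
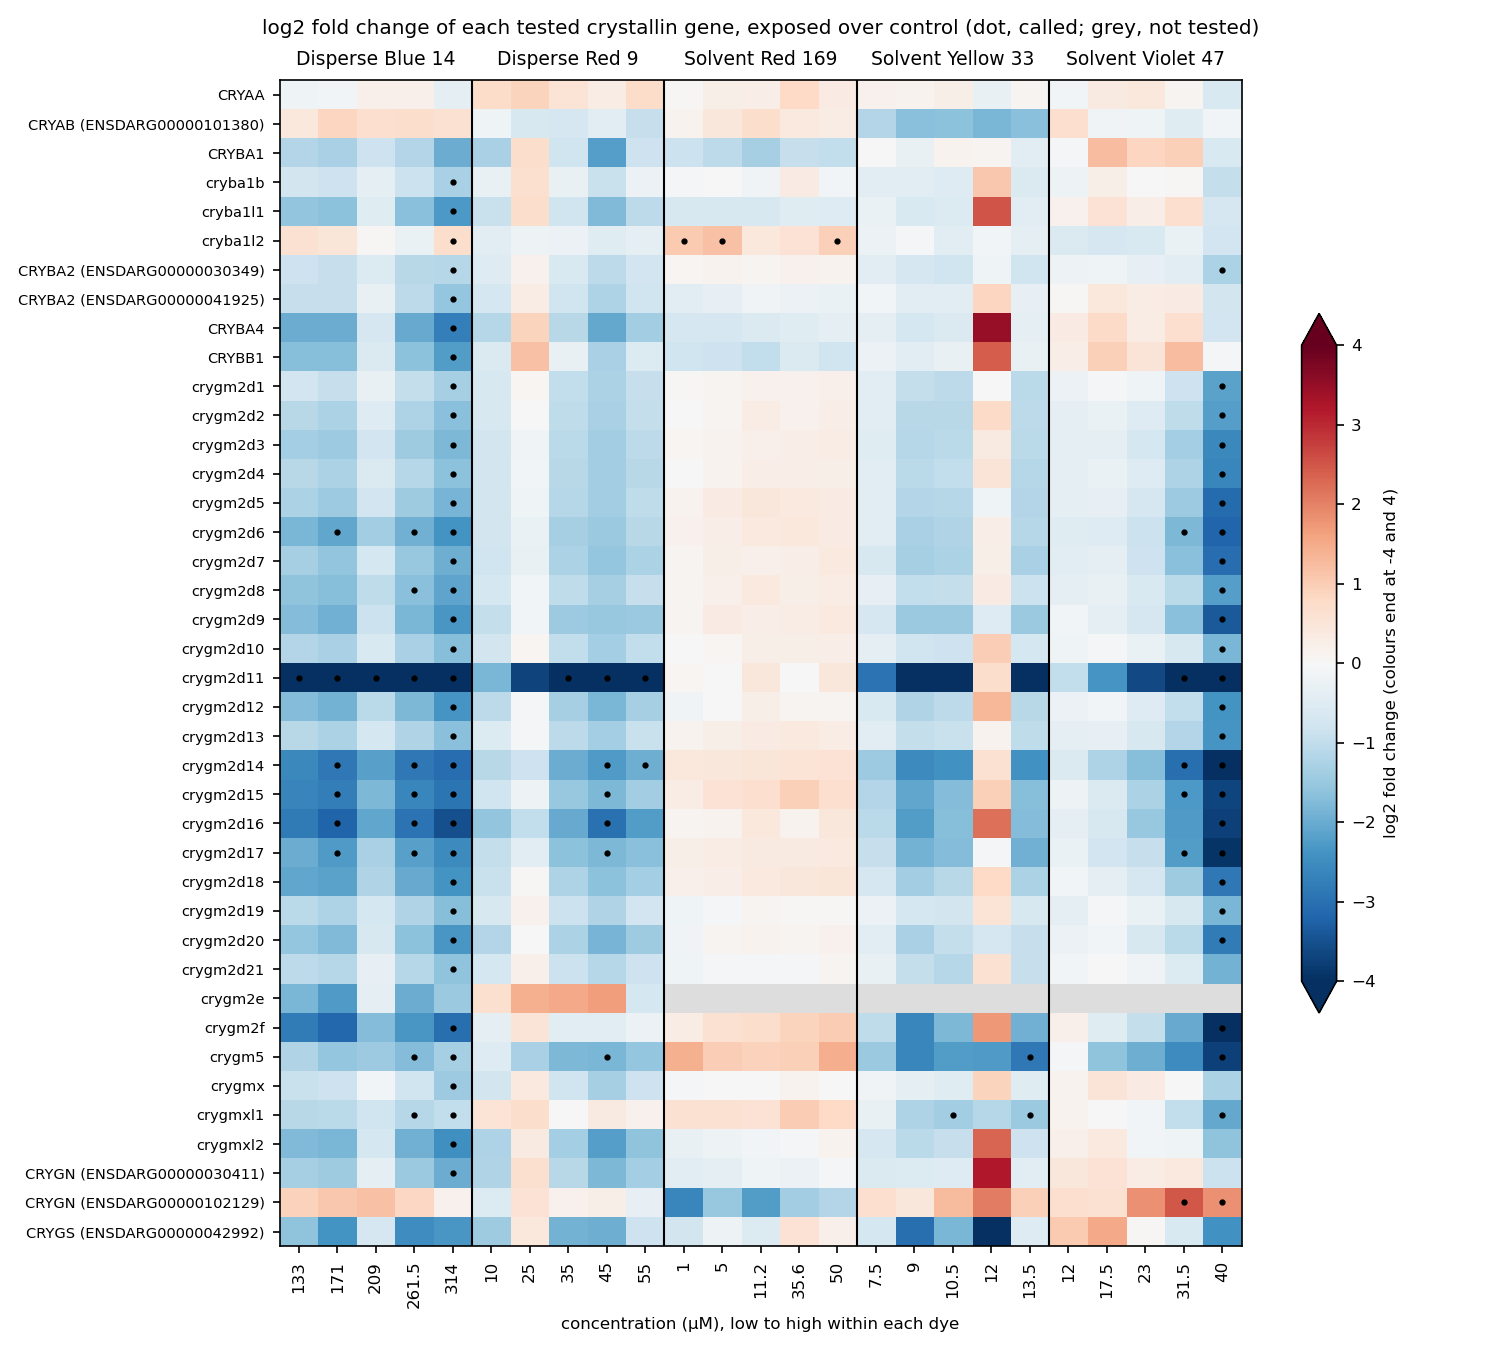
log2 fold change of exposed over control (colour, ending at -4 and 4) of the 40 crystallin genes tested for at least 1 dye (rows) in the 25 comparisons (columns, concentration in μM from low to high within each dye), with a dot where a gene was called and grey where it was not tested. At 314 μM Disperse Blue 14, 21 of 21 crygm2d rows are called, against 8.0% of all genes called lower. At 40 μM Solvent Violet 47, 20 of 21 are called, against 8.91%. Only crygm2d11 was called at 314 μM in all 7 fits with 1 embryo left out. crygm2d11 is called in 10 comparisons.

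In Disperse Red 9 all called members were lower in the fit of all groups. At 45 μM the summed level was 3575 ± 1225 CPM (SD, n = 3) in exposed embryos and 9039 ± 1288 CPM (SD, n = 4) in control embryos, and 6 of 40 members were called lower, against 0.778% of all genes. At 55 μM, 2 members were called lower, against 0.492%, and at 35 μM 1 member, against 0.0728%. In fits of only 1 concentration and its control, 27 members were called lower and 1 higher at 55 μM, and 4 lower at 35 μM. The share of all genes called in these smaller fits was not counted. No member was called at 10 and 25 μM, where 0% of all genes were called lower. There, 5 and 2 members were lower at an unadjusted p under 0.05, and DESeq2 called 0 and 2. Of all 17869 tested genes, 867 and 1250 had an unadjusted p under 0.05 in either direction. The median log2 fold changes of the members from the lowest to the highest concentration were -0.73, 0.06, -1.02, -1.39 and -0.97. All 21 crygm2d genes had every exposed embryo below every control at 35, 45 and 55 μM, where 1, 5 and 2 of them were called. The share of all genes separated in this way was not counted, and the crygm2d genes moved together within groups.

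crygm2d11 had 19.5, 4.07 and 3.21 CPM at 10 μM, 3.12, 3.47 and 0.643 CPM at 25 μM, 1.04, 0.736 and 1.12 CPM at 35 μM, 0.742, 0.782 and 1.04 CPM at 45 μM and 1.00, 1.70 and 0.781 CPM at 55 μM. In the controls it had 23.6, 45.8, 31.2 and 23.0 CPM, so that all 15 exposed embryos were below all 4 controls. The log2 fold change was -5.01 ± 0.69 at 35 μM (adjusted p = 0.0129), -5.21 ± 0.70 at 45 μM (adjusted p = 0.00375) and -4.77 ± 0.68 at 55 μM (adjusted p = 0.00555). crygm2d14 had 39.3, 27.5 and 42.3 CPM at 45 μM and 155, 190, 184 and 146 CPM in the controls (log2 fold change -2.27 ± 0.43, adjusted p = 0.0214). The remaining calls at 45 μM were crygm2d16 (-2.97 ± 0.60, adjusted p = 0.0268), crygm5 (-1.83 ± 0.35, adjusted p = 0.0214), crygm2d17 (-1.80 ± 0.43, adjusted p = 0.0451) and crygm2d15 (-1.79 ± 0.40, adjusted p = 0.0364).

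The embryos at 25 μM Disperse Red 9 differed strongly among themselves. Their summed levels were 7373, 19462 and 2591 CPM in replicates 2, 3 and 4, against 7769 to 10301 CPM in the controls. CRYBB1 had 83.9, 490 and 22.5 CPM at 25 μM, against 85.1, 90.7, 105 and 54.9 CPM in the controls. Because all groups of a dye share 1 estimate of the spread, these embryos bear on the other concentrations too. Without replicate 4 of 25 μM, 23, 9 and 7 members were called at 45, 55 and 35 μM, and without replicate 3 of 25 μM, 21, 7 and 5 members (these fits were added after seeing the data). In the fits with an embryo left out the share of all genes called was not counted. The skeletal muscle sum was 26119 CPM in replicate 3 and 4791 CPM in replicate 4, against 10021 to 13262 CPM in the controls. At 45 μM no member was called without replicate 2 of that group, 1 was called without replicate 1, without replicate 3 or without control replicate 3, and 2 without control replicate 2. At 35 μM no member was called without any single embryo of that group, and at 55 μM none without replicate 1 or 4 and 1 in each of the other fits with an embryo or control left out. CRYAA was above all 4 controls in every embryo at 25, 35, 45 and 55 μM, at 53.8 to 102 CPM, against 40.9 to 48.1 CPM in the controls, with log2 fold changes of 0.89, 0.53, 0.30 and 0.73 and no call (adjusted p = 0.444, 0.73, 0.651 and 0.261).

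In Solvent Yellow 33 the number of calls turned on 1 library. Replicate 3 of 12 μM had 36239 CPM of crystallins, against 2459 and 2672 CPM in the other embryos of its group and 6764 to 8951 CPM in the 4 controls, and it was the library with 9171265 counts. By the methods a sample of this group was left out after quality control, and which one is not given in the sources used here, so that this library was kept. In this embryo CRYBA4 was at 3477 CPM, against 35.6 and 21.9 CPM in the others of the group and 77.4, 110, 97.9 and 130 CPM in the controls. Its skeletal muscle sum was 42788 CPM, against 6717 and 4934 CPM in the others of the group and 7220 to 9503 CPM in the controls, while its lens fibre list was at 458 CPM, against 647 and 748 CPM and 734 to 781 CPM. CRYAA was not high in it, at 47.9 CPM, against 53.8 and 73.1 CPM and 60.5 to 81.5 CPM. With this embryo 0, 0, 1, 0 and 2 members were called lower from 7.5 to 13.5 μM, against 0.0967%, 0.432%, 0.734%, 0.700% and 1.62% of all genes. In fits of only 1 concentration and its control, 11, 27, 7, 0 and 28 members were called lower. The percentages above are of the fit of all groups, and the share of all genes called in these smaller fits was not counted. At 7.5, 9 and 12 μM, 3, 9 and 4 members were lower at an unadjusted p under 0.05 and DESeq2 called 0, 2 and 2 lower. Of all 17577 tested genes, 840, 1314 and 3279 had such a p in either direction. At 12 μM 10 members had such a p in either direction, 28 of 39 log2 fold changes were above 0, and DESeq2 called 1 higher. The median log2 fold changes of the members from 7.5 to 13.5 μM were -0.45, -1.09, -1.04, 0.56 and -1.02. Without replicate 3 of 12 μM, 2, 21, 20, 31 and 22 members were called lower in the fit of all groups, a check chosen after seeing the data for all concentrations but 12 μM. Without replicate 1 of 12 μM, 5 members were called higher there, and without replicate 4, 2 lower and 6 higher. At 9 μM, 1 was called without replicate 1 of that group. For the fits with 1 embryo left out, too, the share of all genes called was not counted.

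The 2 members called in the full fit were crygmxl1 and crygm5. crygmxl1 had 6.72, 4.02 and 4.82 CPM at 13.5 μM and 15, 13.0, 15 and 15.1 CPM in the controls (log2 fold change -1.48 ± 0.30, adjusted p = 0.0142), and was also called at 10.5 μM (-1.39 ± 0.30, adjusted p = 0.0323). crygm5 had 1.49, 0.697 and 0.653 CPM at 13.5 μM and 6.24, 5.88, 7.60 and 7.69 CPM in the controls (log2 fold change -2.85 ± 0.63, adjusted p = 0.0243). In both genes all exposed embryos at 13.5 μM were below all controls. At 13.5 μM no member was called without replicate 2 or 4 and 1 was called without any single control, and at 10.5 μM none without replicate 3 or 4 or any single control. No crygm2d gene was called with all embryos in the fit. In this dye crygm2d11 had 1.32, 0.253 and 2.29 CPM at 13.5 μM and 26.4, 32.2, 37.1 and 29.1 CPM in the controls (log2 fold change -4.58, adjusted p = 0.153), and 20 of the 21 crygm2d genes had every embryo at 13.5 μM below every control. How many of all genes were separated in this way was not counted, and the crygm2d genes moved together within groups. CRYAA had 79.3, 67.4 and 81.9 CPM at 13.5 μM and 60.5, 81.5, 77.4 and 63.8 CPM in the controls (log2 fold change 0.11, adjusted p = 0.938), and its groups overlapped.

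Solvent Red 169 gave no call of a lower crystallin at any concentration in edgeR, against 0.930%, 1.66%, 0%, 0% and 0.734% of all genes called lower from the lowest to the highest concentration. At an unadjusted p under 0.05, 1, 0, 2, 0 and 0 members were lower, and DESeq2 called 1 lower at 1 μM. Of all 17840 tested genes, 5981, 5900, 4304, 4209 and 5434 had an unadjusted p under 0.05 in either direction. The median log2 fold changes of the members were 0.06, 0.13, 0.24, 0.25 and 0.27. Their sign turned without control replicates 1 and 2, a check chosen after seeing the data, to -0.45, -0.35, -0.25, -0.20 and -0.24. Those 2 controls had summed crystallin levels of 2729 and 4566 CPM, against 7490 and 7379 CPM in control replicates 3 and 4. A fall in the medians was thus built into the choice. Leaving out control replicate 3 alone gave medians of 0.30, 0.40, 0.50, 0.49 and 0.54. Leaving out control replicate 4 alone gave 0.22, 0.39, 0.48, 0.44 and 0.48. The only member called higher was cryba1l2, at 1, 5 and 50 μM, where 2.80%, 4.60% and 2.51% of all genes were called higher. It had 31.5, 52.7 and 42.7 CPM at 1 μM, 49.7, 38.3 and 49.3 CPM at 5 μM and 36.4, 52.4 and 29.3 CPM at 50 μM, against 14.4, 20.2, 26.4 and 20.2 CPM in the controls. All exposed embryos at these concentrations were above all controls, and the log2 fold changes were 1.05 ± 0.24, 1.17 ± 0.24 and 0.95 ± 0.24 (adjusted p = 0.0404, 0.0166 and 0.0441).

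The 4 Solvent Red 169 controls differed in the crygm2d genes. crygm2d14 had 102, 105 and 132 CPM at 50 μM, against 14.5, 16.4, 144 and 126 CPM in control replicates 1 to 4. crygm2d11 had 8.70 to 17.3 CPM in the 15 exposed embryos, against 0.134, 0.115, 23.7 and 21.7 CPM in the controls, so that all exposed embryos lay above control replicates 1 and 2 and below control replicates 3 and 4. For CRYBB1 the order of the controls was another, with 39.4, 44.6 and 117 CPM at 50 μM, against 90.1, 234, 50.3 and 88.6 CPM in control replicates 1 to 4. The photoreceptor sum was 959 to 1356 CPM at 50 μM, against 405, 342, 1175 and 770 CPM in control replicates 1 to 4, and the lens fibre sum 614 to 834 CPM, against 468, 476, 806 and 655 CPM. The part of these controls in the calls was not tested beyond leaving them out. Without control replicates 1 and 2 no member was called at any concentration, and none was called in fits of only 1 concentration and its control. Without control replicate 3 there were 15 calls over the 5 concentrations, 2 lower and 13 higher, and without control replicate 4 there were 4. The share of all genes called in these fits was not counted. The cryba1l2 call at 1 μM was lost without any single embryo of that group or without control replicate 1 or 2, at 5 μM without replicate 1 or control replicate 1, and at 50 μM without replicate 1 or 3 or control replicate 1 or 2.

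Over the 25 comparisons there were 91 calls of a lower and 6 of a higher crystallin, spread over 15 comparisons. The 91 included 33 at 314 μM Disperse Blue 14, where 8.0% of all genes were called lower. They also included 24 at 40 μM Solvent Violet 47, where 8.91% of all genes were called lower. The shares of all genes for the other comparisons with a call are given above with each dye. Of the 91, 69 fell on the 21 crygm2d genes and 7 on the beta-crystallins. crygm2d11 was called lower in 10 comparisons, crygm2d14 in 7, crygm2d15 and crygm2d17 in 6 each, and crygm2d6, crygm2d16, crygm5 and crygmxl1 in 5 each. crygm2d11 was called in every fit with 1 embryo left out at 314 μM Disperse Blue 14 and 31.5 and 40 μM Solvent Violet 47. At 40 μM Solvent Violet 47, 14 members were called in every such fit, and at the other 2 concentrations only crygm2d11. In all other comparisons no member was called in every such fit. cryba1l2 was called higher in 4 and lower in none, and 5 of the tested members were called in no comparison. These 5 were CRYAA, CRYAB (ENSDARG00000101380), CRYBA1, CRYGS (ENSDARG00000042992) and crygm2e. The comparisons of a dye share their control embryos, so that these counts are not independent of each other.

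In control embryos as a whole, crygm2d11 was below 2 CPM in 3 of 18, at 0.813 CPM in Disperse Blue 14 replicate 1 and 0.134 and 0.115 CPM in Solvent Red 169 replicates 1 and 2. The other 15 controls had 21.7 to 161 CPM. In the controls crygm2d8 averaged 671 ± 395 CPM (SD, n = 18) and crygm2d19, the other of the 2 gamma-M genes with the highest mean CPM, 595 ± 320 CPM. CRYBA2 (ENSDARG00000041925) averaged 356 ± 219 CPM, CRYBA2 (ENSDARG00000030349) 338 ± 171 CPM, CRYBB1 119 ± 145 CPM and CRYGN (ENSDARG00000030411) 89.0 ± 77.1 CPM. CPM is not scaled to transcript length, so that the order of genes in CPM is not an order of transcript levels.

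Several members were at the edge of detection. CRYAB (ENSDARG00000101380), an alpha-B subunit, averaged 0.631 ± 0.312 CPM in the 18 controls and was not called for any dye, with log2 fold changes between -1.83 at 12 μM Solvent Yellow 33 and 0.87 at 171 μM Disperse Blue 14. CRYAB (ENSDARG00000042621) had a median count of 0 and a highest count of 6. CRYBB3 averaged 0.166 ± 0.123 CPM, CRYGS (ENSDARG00000042992) 0.260 ± 0.196 CPM, crygs4 0.107 ± 0.0951 CPM and CRYGN (ENSDARG00000102129) 0.795 ± 0.814 CPM in the controls. CRYBB3 and crygs4 passed the filter in the fit of no dye and were not tested.

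The members differed in how much they varied between embryos of 1 group. On the log2 CPM scale, with group means removed over all 93 embryos, the SD was 0.36 for CRYAA and 0.36 for cryba1l2, below the median of 0.45 over all 18598 genes that passed the filter. It was 0.57 to 1.61 over the 21 crygm2d genes, with crygm2d11 the highest, 1.24 for crygm2d16, 1.19 for CRYBA4 and 1.05 for CRYBB1. The median SD of the 43 members that passed this filter was 0.74. The crygm2d genes moved together within groups, and the part of reads divided between copies in this was not tested. The Pearson correlation of each with the mean of the other members was 0.69 to 0.99, with a median of 0.96. It was 0.94 for CRYBA2 (ENSDARG00000041925), 0.84 for CRYBB1, 0.29 for CRYAA and -0.26 for cryba1l2. These correlations are descriptions over 93 embryos in 30 groups, and the points share libraries and scaling.

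**Figure D4:**
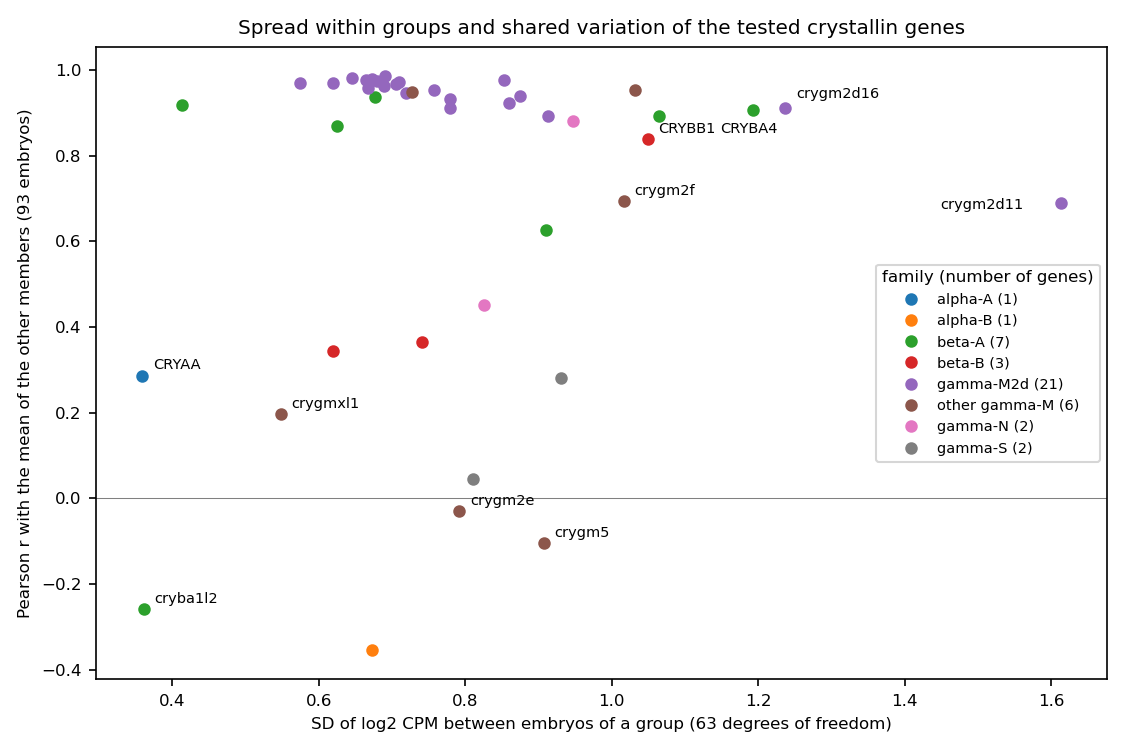
SD of log2 CPM between embryos of a group (x axis) against the Pearson correlation with the mean of the other members over 93 embryos after removal of group means (y axis), for the 43 crystallin genes that passed the filter over all embryos, coloured by family. The 21 crygm2d genes lie at correlations of 0.69 to 0.99, while CRYAA (SD 0.36) and cryba1l2 (SD 0.36) vary least.

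The genes outside the crystallins whose variation was most like that of the member mean were CKB (r = 0.95, rho = 0.92), the brain type creatine kinase, fgfbp2b (r = 0.95, rho = 0.87), ATL1 (r = 0.94, rho = 0.85), fmn2b (r = 0.92, rho = 0.88), CDK5R2 (r = 0.92, rho = 0.84), AMPD1 (r = 0.92, rho = 0.85), pmelb (r = 0.92, rho = 0.85), si:ch211-133n4.6 (r = 0.92, rho = 0.81), KIFC3 (r = 0.92, rho = 0.81) and si:dkey-183i3.5 (r = 0.92, rho = 0.78). They were picked as the highest of 18555 genes over the 93 embryos, so that no p is given. Without the 2 embryos farthest from the median of the member mean, replicate 3 of 12 μM Solvent Yellow 33 and replicate 4 of 25 μM Disperse Red 9, the correlation of CKB was 0.93, and within single dyes it was 0.91 to 0.98. In all, 337 genes had a correlation over 0.8. AMPD1 is known as the AMP deaminase of skeletal muscle and pmelb as a pigment cell gene, and none of the 10 was on the lens lists.

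Markers of some other tissues moved with the crystallins. The mean of the 5 skeletal muscle genes had a correlation of 0.82 with the member mean, that of the 4 keratinocyte genes 0.78, that of the 2 erythroid genes 0.70 and that of the 24 lens transcription factors -0.57. The 18 lens fibre membrane and cytoskeleton genes had a correlation of 0.20 and the photoreceptor genes of 0.29. It was 0.41 for the 4 neuron genes, 0.36 for the 3 liver and yolk genes and 0.19 for the 1 hatching gland gene. Of 18555 single genes outside the crystallins, 4016 had a correlation over 0.5 and 4613 under -0.5. A correlation over 0.8 was rarer, with 337 genes. The correlation with log2 total count was -0.12. The summed skeletal muscle level was 4479 to 8021 CPM at 314 μM Disperse Blue 14 and 8580 to 28930 CPM in its controls, and 3355 to 7571 CPM at 40 μM Solvent Violet 47 and 5738 to 6335 CPM in its controls. The part of these shared movements in the crystallin results was not tested.

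Other lens genes were read at the same concentrations. At 314 μM Disperse Blue 14, 1 of 18 lens fibre membrane and cytoskeleton genes was called lower, BIRC7 (log2 fold change -1.72 ± 0.57, adjusted p = 0.0464), against 8.0% of all genes, and the median over the list was -0.13. At 40 μM Solvent Violet 47, 6 of 18 were called lower and 1 higher, against 8.91% and 6.05% of all genes, with a median of -0.78. The lens nuclease gene dnase1l1l, which in zebrafish acts in the removal of fibre cell nuclei, fell to 9.37 ± 3.05 CPM (SD, n = 3), against 67.1 ± 2.64 CPM (SD, n = 2) in the controls (log2 fold change -2.88 ± 0.38, adjusted p = 0.000522). GRIFIN, a lens galectin, fell by 1.99 on the log2 scale (adjusted p = 0.00215), and epha2a, an ephrin receptor gene, rose by 1.82 (adjusted p = 0.000554). At 13.5 μM Solvent Yellow 33, 2 of 17 tested were called lower, against 1.62% of all genes, dnase1l1l (-1.59 ± 0.32, adjusted p = 0.015) and MIP, the fibre cell aquaporin (-0.59 ± 0.12, adjusted p = 0.0157), and 1 higher, again epha2a (0.95 ± 0.15, adjusted p = 0.00395). The median over the list was -0.23 at 45 μM Disperse Red 9 and 0.28 at 50 μM Solvent Red 169, where it was 0.02 without control replicates 1 and 2.

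Of 24 lens transcription factor genes, 6 were called lower and 1 higher at 40 μM Solvent Violet 47, against 8.91% and 6.05% of all genes. PROX1, a homeodomain factor of fibre cell differentiation, had 23.2 ± 3.91 CPM (SD, n = 3) in exposed embryos and 84.4 ± 8.64 CPM (SD, n = 2) in control embryos (log2 fold change -1.89 ± 0.20, adjusted p = 0.000204). HSF4, a heat shock factor of the lens, fell by 1.86 on the log2 scale at 40 μM Solvent Violet 47 (adjusted p = 0.00786) and by 1.26 at 13.5 μM Solvent Yellow 33 (adjusted p = 0.0238). At 314 μM Disperse Blue 14, meis2b was called higher (log2 fold change 0.66 ± 0.16, adjusted p = 0.022). In Solvent Red 169, 9 of 24 were called higher at 5 μM, against 4.60% of all genes. At 50 μM 4 were called higher (MAF, MAFA, SIX3 and SOX2), against 2.51%. These genes were also called higher at 1 μM, against 2.80%. The summed level of the list was 2843 to 4088 CPM at 50 μM, against 1716, 1484, 3282 and 2477 CPM in control replicates 1 to 4. Without control replicates 1 and 2 none was called at 5 or 50 μM, and at 50 μM none was called without either of these embryos alone. The calls at 1 μM are not given without these controls. Several of these factors also act outside the lens, so that in whole embryos their levels do not stand for the lens alone.

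Of 9 small heat shock protein genes other than the alpha-crystallins, 2 were called higher and 1 lower at 40 μM Solvent Violet 47, where 6.05% and 8.91% of all genes were, while CRYAA was not called. HSPB1 rose to 91.6 ± 29.0 CPM (SD, n = 3), against 8.71 ± 1.13 CPM (SD, n = 2) in the controls (log2 fold change 3.36 ± 0.45, adjusted p = 0.000554), hspb9 rose by 2.60 on the log2 scale (adjusted p = 0.0122) and hspb15 fell by 2.82 (adjusted p = 0.00192). At 314 μM Disperse Blue 14, 1 was called higher, HSPB8 (1.34 ± 0.44, adjusted p = 0.0448), and 2 lower, HSPB2 (-1.12) and HSPB3 (-2.23). Photoreceptor genes, the other eye list, were called lower for 17 of 29 tested at 40 μM Solvent Violet 47, against 8.91% of all genes, and for 10 of 29 at 314 μM Disperse Blue 14, against 8.0%, where 1, gnb1b, was called higher. They were called lower for 6 of 25 at 45 μM Disperse Red 9, against 0.778%, and for 5 of 26 at 13.5 μM Solvent Yellow 33, against 1.62%.

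Disperse Red 9 and Solvent Red 169 are both anthraquinones with a single alkylamino group, a methylamino group in Disperse Red 9 and an isopropylamino group in Solvent Red 169, and Disperse Blue 14 carries a pair of methylamino groups. Their concentrations did not match. At 35 μM Disperse Red 9 the median log2 fold change of the members was -1.02 and at 35.6 μM Solvent Red 169 it was 0.25, each against its own controls. At 50 μM Solvent Red 169 it was 0.27 and at 55 μM Disperse Red 9 -0.97. Without control replicates 1 and 2 the Solvent Red 169 medians were -0.20 at 35.6 μM and -0.24 at 50 μM. They were 0.49 and 0.54 without control replicate 3, and 0.44 and 0.48 without control replicate 4. Each value is against the dye's own controls, and no comparison was made between dyes.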

How the data were processed

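Whole embryos were sequenced singly, and the deposited table holds estimated counts per gene that the authors made with Trim Galore 0.6.5 and Salmon 1.1.0 on GRCz11, so that reads of near-identical copies could be divided by a model and 62.2% of the values are whole. Groups came from the sample labels. The members and gene lists were chosen with earlier results of these data known. Counts were rounded and tested in R 4.3.3 with edgeR 4.0.16 (quasi-likelihood F test, TMM, filterByExpr), with all groups of a dye in 1 fit, Benjamini-Hochberg adjustment over all tested genes and a call at a fold change over 1.5 and an adjusted p under 0.05. Log2 CPM used a prior count of 2. Since single embryos were the replicates, p-values set a difference against the spread between embryos. The labels do not name a clutch, plate or exposure run, so that a spread between these was not measured. Named for each dye were, at the concentration with most calls, up to 6 called members with the largest change and up to 3 with the lowest adjusted p, beside the alpha-crystallins and the 2 members of each other family highest in controls. The calls were repeated with DESeq2 1.42.0, without the filter, with median-ratio size factors, with the controls of all dyes together, with a block for the replicate number, with only 1 exposed group and its control, and with each embryo left out. Same-numbered embryos did not deviate together (mean r of -0.0263 to 0.0498 per dye). The fit was also run on simulated data. Each gene was drawn there on its own, so that shifts shared by many genes of an embryo were not part of it. Sequences were not used here. The result of 1 listed gene is not reported here.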

Additional observations from a re-analysis of the deposited data

Results flagged for a closer look

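The levels of named members were read in the groups of 4 controls, and 11 of 100 such groups held an embryo far from the rest. Chance flags about 1 in 20 groups, but these groups are genes read in the same embryos, and 4 of the 11 belonged to 1 embryo, so that their number is not set against chance. In the Disperse Blue 14 controls, 1 embryo had 1178 CPM of CRYBA2 (ENSDARG00000041925), against 245 to 363 CPM in the others, 677 CPM of CRYBB1, against 66.5 to 87.7 CPM, 378 CPM of CRYGN (ENSDARG00000030411), against 47.2 to 81.2 CPM, and 951 CPM of CRYBA4, against 99.2 to 141 CPM. In the Disperse Red 9 controls, 1 embryo had 0.0326 CPM of CRYAB (ENSDARG00000042621), against 0 in the others, which rests on a single count, and 1 had 0.323 CPM of CRYBB3, against 0.228 to 0.238 CPM. In the Solvent Red 169 controls, 1 embryo had 140 CPM of CRYBA2 (ENSDARG00000030349), against 255 to 266 CPM, and 1 had 3.81 CPM of CRYGN (ENSDARG00000102129), against 0.685 to 1.00 CPM. In the Solvent Yellow 33 controls, 1 embryo had 1.19 CPM of CRYAB (ENSDARG00000101380), against 0.644 to 0.691 CPM, 1 had 49.7 CPM of crygm2d16, against 71.1 to 71.7 CPM, and 1 had 13.0 CPM of crygmxl1, against 15 to 15.1 CPM.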

How the results depend on the processing

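Median-ratio size factors and no filter on low counts kept every count of calls within 1.5 times. DESeq2 gave 98 calls over the 5 Disperse Blue 14 concentrations (51 in edgeR), a gene counting at each concentration where it was called. Of these, 14, 21, 5 and 22 were at 133, 171, 209 and 261.5 μM. In Disperse Red 9 it gave 36 calls (9 in edgeR), with 2, 6, 20 and 8 at 25, 35, 45 and 55 μM. In Solvent Yellow 33 it gave 11 (3 in edgeR), with 2, 2, 3 and 4 at 9, 10.5, 12 and 13.5 μM. It also gave 2 calls at 1 μM Solvent Red 169 and 1 at 23 μM Solvent Violet 47. With all 18 controls pooled the counts were 17 in Disperse Blue 14 (2, 3 and 10 at 171, 261.5 and 314 μM), 4 in Disperse Red 9 (1 at 25, 45 and 55 μM each), 0 in Solvent Red 169 and at each of 1, 5 and 50 μM, 18 in Solvent Yellow 33 (3, 2, 9 and 4 at 9, 10.5, 12 and 13.5 μM) and 11 at 31.5 μM Solvent Violet 47. With only 1 exposed group and its control they were 0 in Disperse Blue 14 at every concentration, 39 in Disperse Red 9 (4 and 28 at 35 and 55 μM), 0 in Solvent Red 169 and at 1, 5 and 50 μM, 73 in Solvent Yellow 33 (28 at 13.5, 7 at 10.5, 27 at 9 and 11 at 7.5 μM), and 8 at both 23 and 40 μM Solvent Violet 47. With controls added at concentration 0 the trend called 30 members for Disperse Blue 14, 8 for Disperse Red 9 and 3 for Solvent Yellow 33. The cause was not tested, and the share of all genes called under these alternatives was not counted.

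The replicate number as a block, which the labels do not tie to a shared animal or day, gave 28 calls in Disperse Blue 14 (0, 1, 0 and 1 at 133, 171, 209 and 261.5 μM), 1 at 25 and 1 at 55 μM Disperse Red 9, 0 at 50 μM Solvent Red 169 and 1 at 23 μM Solvent Violet 47, and kept the other counts within 1.5 times.

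With 1 embryo left out at a time the counts ran from 14 to 120 over the Disperse Blue 14 concentrations (0 to 21, 0 to 26, 0 to 12, 0 to 26 and 1 to 35 from the lowest to the highest), 3 to 39 over Disperse Red 9 (0 to 7 at 35, 0 to 23 at 45 and 0 to 9 at 55 μM), 0 to 15 over Solvent Red 169 (0 to 3, 0 to 2, 0 to 2, 0 to 5 and 0 to 3 from the lowest to the highest), 0 to 96 over Solvent Yellow 33 (0 to 2, 0 to 21, 0 to 20, 0 to 31 and 0 to 22 from the lowest to the highest) and 16 to 39 over Solvent Violet 47 (0 to 1 at 23, 1 to 4 at 31.5 and 15 to 27 at 40 μM). Without Solvent Red 169 control replicates 1 and 2 together, added after seeing the data, the counts were 0. In none of the fits with embryos left out was the share of all genes called counted. Of the values of single named genes under all alternatives, 786 kept their side of the threshold, 118 lost a call, 14 gained one and 0 changed sign after a call. At this depth 13 of the 53 members passed the filter for no dye and have no test.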
